A study of Mus musculus with 4 samples.

Results

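The 9 genes described here are App, Aplp2, Psen2, Ncstn, Psenen, Aph1a, Aph1b, Itm2b and Ide, chosen by symbol from the 19737 genes listed in a single-cell RNA-sequencing count table of mouse microglia. They encode the amyloid precursor protein and a paralogue, subunits of the gamma-secretase that cuts both, a membrane protein that binds App, and an enzyme that degrades amyloid-beta. The 20 mice fell into 5 groups of 4. WT;TfRmu/hu animals received the isotype control ATV:ISO or the antibody ATV:4D9, and AppSAA;TfRmu/hu animals received either of these or unmodified 4D9. All groups, controls included, were homozygous for TfRmu/hu, in which the apical domain of the human transferrin receptor is knocked in to the mouse receptor. AppSAA mice carry at both alleles a humanized amyloid-beta sequence and amyloid-promoting mutations at their own App locus, under the App promoter and with no transgene, so App is the edited gene itself. 4D9 is an antibody that activates Trem2, ATV is an Fc engineered to bind the transferrin receptor, and ATV:ISO carries a control Fab. Mice received 1 intravenous dose of 10 mg per kg and were sampled after 24 h, at an age listed as 8 months for AppSAA mice in the study's reporting summary, which may not cover the WT mice. The deposited name of the isotype arm differs from ATV:ISO and was read as ATV:ISO. Of the WT mice given ATV:ISO, the mouse of pool 4 was recorded as female.

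Cells were tagged by mouse and loaded in 4 pools that each took 1 animal per group, after a sort for CD11b+ cells. The sources disagree on whether CD45 was also used and on whether hippocampus was taken with cortex. The table held 74758 cells in 6 deposited clusters, numbered 0 to 5 without names. Mice contributed 2193 to 6126 cells and 17150296 to 102446549 unique molecular identifiers (UMIs). Median UMIs per cell lay between 6859 and 8173.5 in WT mice given ATV:ISO and between 13479 and 17290 in WT mice given ATV:4D9. In AppSAA mice they lay between 8444.5 and 9883.5 with ATV:ISO, 8293 and 11552.5 with 4D9, and 13560 and 16475 with ATV:4D9. The 8 microglial markers summed to 21937 to 32829 counts per 1000000 UMIs of the library (CPM) in each mouse, against 0.418 to 2.12 CPM for 6 neuronal and 1.79 to 6.73 CPM for 5 astrocyte markers. Across pools, 543 cell barcodes recurred, in 1089 cells (1.46%).

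App is a membrane protein whose outer part is shed by Adam10 or Bace1, after which gamma-secretase cuts the remaining stub inside the membrane. Cleavage that begins with Bace1 releases amyloid-beta. Gamma-secretase is built from a catalytic presenilin such as Psen2, nicastrin (Ncstn), an Aph1 scaffold (Aph1a, Aph1b or Aph1c) and Psenen, also called Pen-2. Aplp2 is processed like App but lacks the amyloid-beta sequence. Itm2b, or BRI2, is a small membrane protein that binds App and is itself cut by furin, Adam10 and Sppl2b. Ide is a zinc protease that degrades insulin and soluble amyloid-beta. In brain, most App is neuronal, while microglia take up and degrade amyloid-beta.

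In GRCm38.p6, the mm10 build, App spans chr16:84952666-85175255 and Aplp2 chr9:31149557-31211848. Psen2 is at chr1:180227004-180263467, Ncstn at chr1:172066013-172082789, Psenen at chr7:30561865-30563627, Aph1a at chr3:95893921-95898592 and Aph1b at chr9:66775202-66797345. Itm2b is at chr14:73362226-73385289 and Ide at chr19:37268743-37334544. All but Aph1a are on the minus strand. Copa overlaps Ncstn, Car14 overlaps Aph1a, U2af1l4 overlaps Psenen and antisense transcripts overlap App and Psen2, each on the opposite strand, and whether counting used the strand is not given in the sources used here. A processed pseudogene, Rpl10-ps6, overlaps Ide on the same strand. Aph1b has a near-identical neighbour, Aph1c, so its counts are uncertain.

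The start-site windows of App and Aplp2 are shown because these paralogous substrates differ in what follows, App being nearly level between genotypes and Aplp2 not. Each line gives RefSeq's 250 bases before and 50 after the start in GRCm38.p6, on the gene's own minus strand, 5′ to 3′. Capitals mark matches on either strand to the letters GGGCGG (a GC box) or CCAAT. The window of App is chr16:85173658-85173957 and that of Aplp2 is chr9:31211799-31212098. The App window lies inside the span given above, so its start is not the outermost one annotated. The Aplp2 window sits at the end of its span.
App: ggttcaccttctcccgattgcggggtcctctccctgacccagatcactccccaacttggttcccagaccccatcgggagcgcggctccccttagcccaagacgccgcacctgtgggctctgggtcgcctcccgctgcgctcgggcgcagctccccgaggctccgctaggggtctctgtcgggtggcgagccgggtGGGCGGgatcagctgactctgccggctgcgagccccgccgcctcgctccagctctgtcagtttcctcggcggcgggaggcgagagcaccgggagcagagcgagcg
Aplp2: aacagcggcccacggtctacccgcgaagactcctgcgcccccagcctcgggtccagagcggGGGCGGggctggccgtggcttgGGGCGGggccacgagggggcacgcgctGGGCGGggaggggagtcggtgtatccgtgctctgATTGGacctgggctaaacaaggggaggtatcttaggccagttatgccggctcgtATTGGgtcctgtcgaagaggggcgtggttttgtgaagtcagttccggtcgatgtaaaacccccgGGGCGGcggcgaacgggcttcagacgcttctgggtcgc
The App window held 1 GC box and no CCAAT and was 71.0% G or C. The Aplp2 window held 4 GC boxes and 2 CCAAT matches, none sharing a base, and was 67.0% G or C. Over the 32851 promoter windows of the same length, 35.7% held GGGCGG and 37.4% held CCAAT, with a median of 52.7% G or C. A window was found for all 9 genes (11 windows); GGGCGG was in windows of 6 genes and CCAAT in those of 5. CACGTG, an E-box held by 7.15% of all windows, was in a window of 1 gene, and neither TGACGTCA (1.79% of all) nor TATAAA (13.6%) was in any.

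All 9 genes passed the filter on low counts, as did 14058 genes in all. In WT mice given ATV:ISO, Itm2b was by far the most abundant (5281 ± 379 CPM; SD, n = 4 here and below), followed by Psenen (240 ± 21.9) and App (141 ± 1.83). The next genes in that order, Aplp2 (82.5 ± 8.24 CPM), Aph1a (78.3 ± 4.89) and Ncstn (73.8 ± 8.08), overlapped in their ranges. Ide (40.0 ± 7.80 CPM) and Psen2 (22.9 ± 1.40) were lower, and Aph1b reached 1.24 CPM. The kit counts the 3′ end of transcripts, so CPM levels carry no correction for length. In sums over a mouse's cells, fewer cells of a type and less RNA per cell cannot be told apart.

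**Figure D1:**
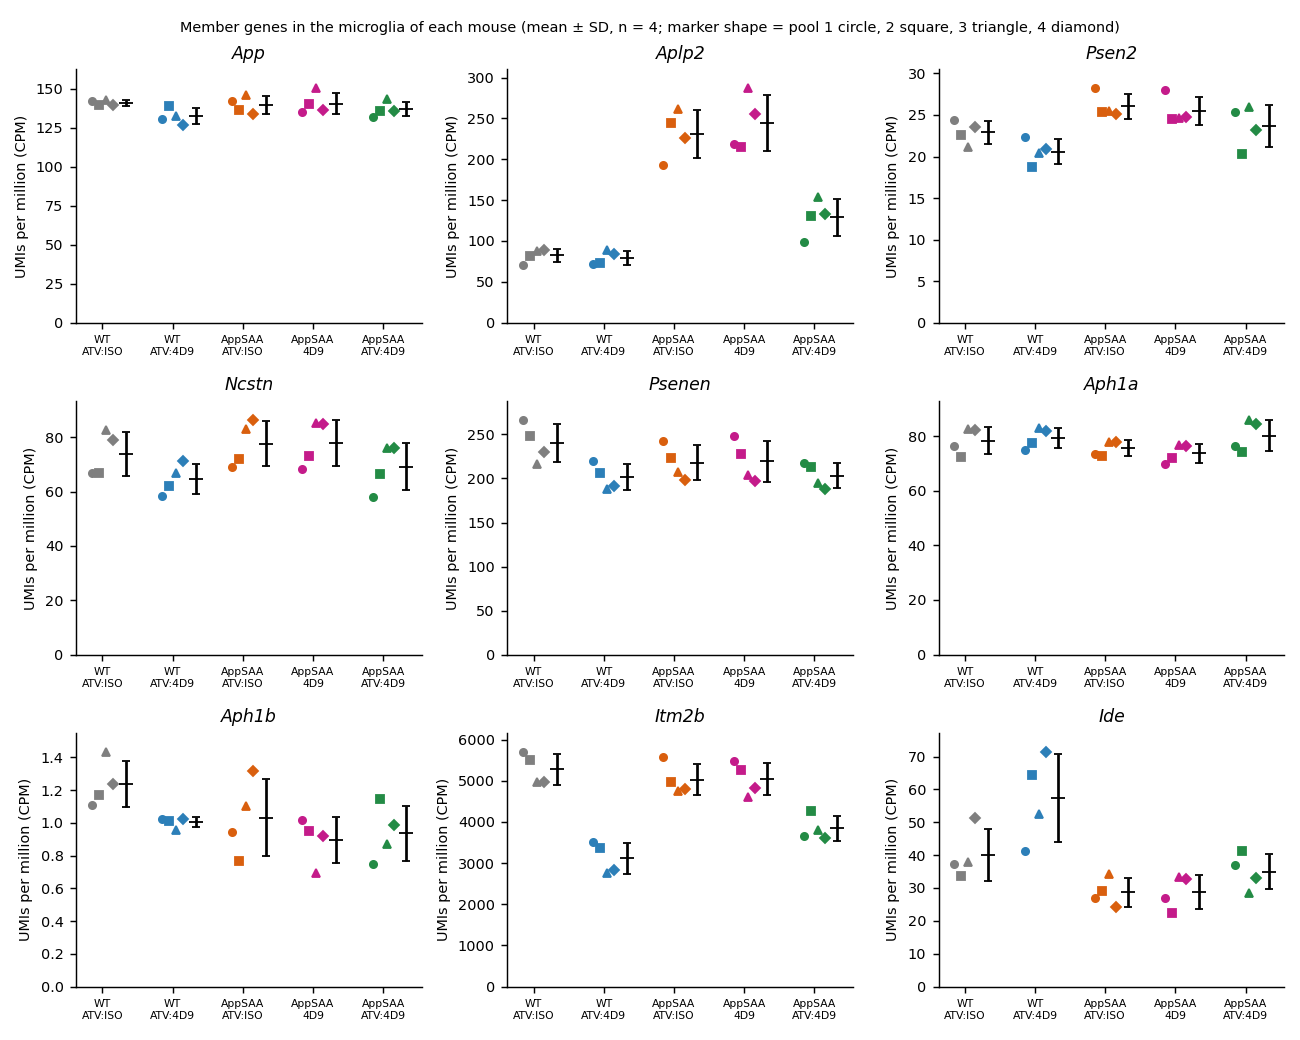
CPM (y axis, from 0) of the 9 genes in the microglia of each mouse, by group (x axis), with the group mean ± SD (n = 4) beside the points and the pool given by marker shape. Aplp2 separates the AppSAA groups given ATV:ISO or 4D9 (193 to 287 CPM) from both WT groups (71.1 to 89.0), Itm2b is lower in both ATV:4D9 groups, and App lies between 127 and 150 CPM in every mouse.

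Aplp2 was the gene of the set that differed most with genotype. In WT mice given ATV:ISO it stood at 71.1, 81.6, 88.2 and 89.0 CPM in pools 1 to 4. In AppSAA mice given ATV:ISO it stood at 193, 244, 261 and 226 CPM. Every AppSAA mouse lay above every WT mouse. The fitted difference was 3.19-fold (log2 fold change 1.67, 95% interval 1.46 to 1.89, adjusted p = 3.7e-10; edgeR quasi-likelihood test with Benjamini-Hochberg adjustment over all genes, as for every adjusted p below). Per cell, the mean rose from 0.714 to 2.68 UMIs.

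Aplp2 did not pass the test for a change with ATV:4D9 in WT mice, where treated mice stood at 71.4, 72.7, 88.6 and 83.5 CPM (log2 fold change 0.06, interval -0.16 to 0.27, adjusted p = 0.660). In AppSAA mice ATV:4D9 gave 98.8, 131, 154 and 133 CPM, each below every AppSAA mouse given ATV:ISO. Aplp2 fell by 0.78 on the log2 scale there (interval -0.99 to -0.57, adjusted p = 2.3e-06). AppSAA mice given 4D9 held 219, 215, 287 and 255 CPM, within reach of the ATV:ISO mice (log2 fold change 0.09, interval -0.13 to 0.30, adjusted p = 1.00). ATV:4D9 lay below 4D9 in every mouse, by 0.86 on the log2 scale (log2 fold change -0.86, interval -1.08 to -0.65, adjusted p = 6.3e-07). The effect of ATV:4D9 differed between genotypes (interaction -0.83, interval -1.13 to -0.53, adjusted p = 0.000818). Even so, Aplp2 remained higher in AppSAA than in WT mice when both had ATV:4D9 (log2 fold change 0.84, interval 0.63 to 1.05, adjusted p = 7.5e-06), with no overlap. Per cell, where ATV:4D9 groups held more UMIs of most genes, Aplp2 was lower with ATV:4D9 than with ATV:ISO in 4 of 4 AppSAA pools (ratio of means 0.823, ranges overlapping).

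The 5 endothelial markers moved along with Aplp2 in their sum, at 19.5 to 26.0 CPM in WT and 38.0 to 53.3 CPM in AppSAA mice given ATV:ISO, and 16.1 to 29.3 CPM in AppSAA mice given ATV:4D9. Its members did not move together. Under ATV:ISO, Flt1 stood at 2.39 to 6.69 CPM in WT and 27.0 to 43.4 CPM in AppSAA mice, while Pecam1 went the other way (15.8 to 20.9 and 6.34 to 10.4 CPM), as did Cdh5 (1.02 to 1.46 and 0.464 to 0.873 CPM). Of the defining endothelial genes, Cldn5 did not exceed 0.416 CPM and Slco1a4 did not exceed 0.409 CPM in any mouse. Between the same genotype groups the sums of the 8 microglial markers (30388 to 32829 and 22697 to 26897 CPM), the 3 B cell markers (26.9 to 30.5 and 17.3 to 20.4 CPM) and the 6 neuronal markers (1.27 to 2.12 and 0.418 to 0.972 CPM) also separated. The B cell sum was nearly all Cd79b (26.9 to 30.5 and 17.2 to 20.4 CPM). Cd79a and Ms4a1 were at 0 in all 4 WT mice and reached 0.0672 and 0.0806 CPM in AppSAA mice. The part of these lists in the result was not tested.

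App, the edited gene, was nearly level across groups. It stood at 142, 140, 143 and 139 CPM in WT mice given ATV:ISO and at 142, 136, 146 and 134 CPM in AppSAA mice given ATV:ISO. With ATV:4D9 it stood at 131, 139, 133 and 127 CPM in WT and 132, 136, 143 and 136 CPM in AppSAA mice, and with 4D9 at 135, 140, 150 and 136 CPM. The highest of the 20 mice was 1.19 times the lowest. Counts from the 3′ end do not separate the edited from the WT allele, so they check nothing about genotype.

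In none of the comparisons over all microglia did App pass the test. For AppSAA against WT the log2 fold change was 0.17 with ATV:ISO (interval 0.04 to 0.30, adjusted p = 0.0512) and 0.19 with ATV:4D9 (interval 0.06 to 0.32, adjusted p = 0.0575). The first passed in 9 of 16 alternatives and the second in 4, with DESeq2 and with the pool as a block (adjusted p = 0.000266 and 0.000165) among both. Scaled to library totals alone the first turned to -0.02 (adjusted p = 0.820) and the second was 0.05 (adjusted p = 0.506). This choice of scaling touches every small difference below: relative to the TMM scaling used throughout, library totals shifted the median log2 fold change of all genes by -0.18 for genotype with ATV:ISO, -0.14 for genotype with ATV:4D9 and -0.12 for ATV:4D9 in WT mice. The share of called genes that were higher in AppSAA mice was 51.2% by TMM and 22.3% by library totals with ATV:ISO, and 66.3% against 26.5% with ATV:4D9. ATV:4D9 moved App by 0.02 in WT mice (adjusted p = 0.763) and 0.04 in AppSAA mice (adjusted p = 0.589) on the log2 scale, and all WT mice given ATV:4D9 lay below all those given ATV:ISO in CPM. In UMIs per cell App was higher with ATV:4D9, at a mean of 2.22 against 1.21 in WT and 2.34 against 1.61 in AppSAA mice.

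**Figure D2:**
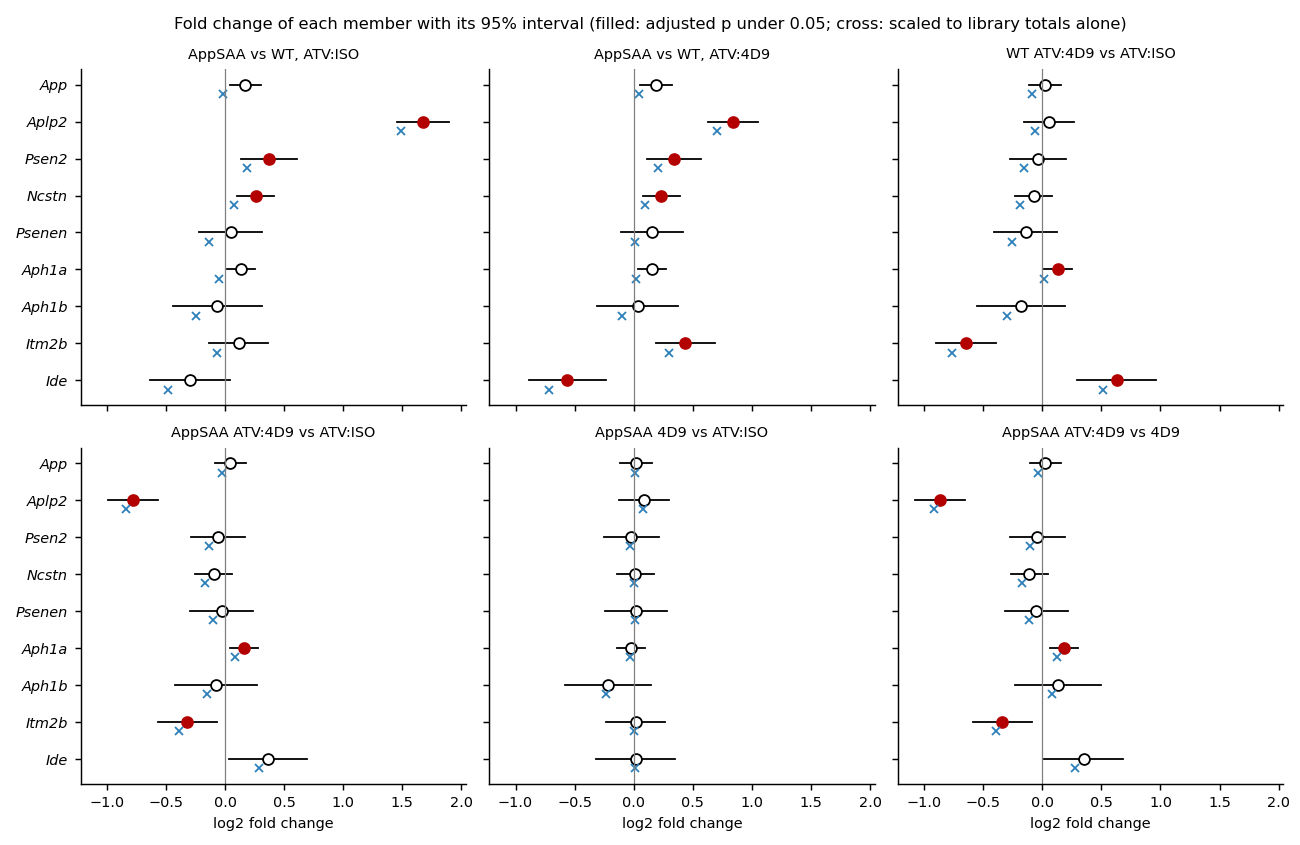
Log2 fold change of each gene (x axis) in 6 comparisons, with the 95% interval as a line. Filled points passed the test at adjusted p under 0.05, and crosses give the value when counts are scaled to library totals alone. Aplp2, Itm2b and Ide keep their filled points clear of 0, while in the genotype comparisons the small values of Psen2, Ncstn, Aph1a and App sit closer to 0 under library totals.

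Among the gamma-secretase subunits, Psen2 and Ncstn were slightly higher in AppSAA mice. Psen2, the presenilin found mainly in late endosomes and lysosomes, stood at 24.4, 22.6, 21.1 and 23.6 CPM in WT and 28.2, 25.4, 25.5 and 25.1 CPM in AppSAA mice given ATV:ISO, without overlap. The log2 fold change was 0.37 (interval 0.13 to 0.61, adjusted p = 0.0183), but 0.18 by library totals (adjusted p = 0.0671), and without the AppSAA mouse of pool 1 or the WT mouse of pool 3 the adjusted p was 0.0601 to 0.0649. With ATV:4D9 in both genotypes it was 0.34 (adjusted p = 0.0466), or 0.20 by library totals (adjusted p = 0.0763). Leaving out any of 5 mice (AppSAA pools 1 and 3, WT pools 2, 3 and 4) ended that call (adjusted p = 0.0882 to 0.161), and it was lost in 9 of 16 alternatives in all. With the pool as a block Psen2 passed for genotype under ATV:ISO and under ATV:4D9 (adjusted p = 0.00026 and 0.000535).

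Ncstn, the subunit that receives the substrate, stood at 67.0, 66.9, 82.5 and 78.8 CPM in WT and 69.1, 72.1, 82.9 and 86.3 CPM in AppSAA mice given ATV:ISO. The ranges overlapped, but AppSAA exceeded WT in each of the 4 pools. Its log2 fold change of 0.26 (interval 0.10 to 0.41, adjusted p = 0.0144) shrank to 0.07 by library totals (adjusted p = 0.590), and the adjusted p was 0.0516 without the AppSAA mouse of pool 4. With ATV:4D9 the genotype difference was 0.23 (adjusted p = 0.0461), 0.10 by library totals (adjusted p = 0.526), and no longer passed without any of 5 mice (AppSAA pools 3 and 4, WT pools 1, 2 and 3; adjusted p = 0.0892 to 0.169), being lost in 10 of 16 alternatives in all. With the pool as a block Ncstn passed for genotype under ATV:ISO and under ATV:4D9 (adjusted p = 9.8e-06 and 5.6e-05). ATV:4D9 itself moved Ncstn by -0.10 in AppSAA mice against ATV:ISO and by -0.11 against 4D9, which passed with the pool as a block alone (adjusted p = 0.0169 and 0.00762).

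Aph1a, the more abundant Aph1 scaffold, varied little in level, and the 20 mice lay between 69.8 and 85.9 CPM. It was called higher with ATV:4D9 in WT mice (log2 fold change 0.13, adjusted p = 0.0491), in AppSAA mice against ATV:ISO (0.16, adjusted p = 0.0246) and in AppSAA mice against 4D9 (0.18, adjusted p = 0.0106). By library totals these were 0.02, 0.09 and 0.12, and none passed (adjusted p = 0.822, 0.248 and 0.106). With the pool as a block each passed (adjusted p = 0.00383, 0.00104 and 0.000281). In WT mice CPM was higher with ATV:4D9 in only 2 of 4 pools, and leaving out any of 6 mice (ATV:4D9 pools 1, 3 and 4, ATV:ISO pools 2, 3 and 4) ended the call (adjusted p = 0.0594 to 0.137). In AppSAA mice it was higher in 4 of 4 pools against both controls, and the call against ATV:ISO ended without any of 4 mice (ATV:4D9 pools 1 and 3, ATV:ISO pools 3 and 4; adjusted p = 0.0517 to 0.0774). For genotype, values of 0.13 with ATV:ISO and 0.16 with ATV:4D9 did not pass (adjusted p = 0.0932 and 0.0838). They passed in 4 and 3 of 16 alternatives, DESeq2 and the pool as a block (adjusted p = 0.00713 and 0.00339) among both, and the first was -0.05 by library totals.

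Psenen, the small subunit that completes the complex, averaged 240 ± 21.9 CPM in WT mice given ATV:ISO and 201 ± 14.7 CPM in WT mice given ATV:4D9. In AppSAA mice it averaged 218 ± 19.6 CPM with ATV:ISO, 219 ± 23.2 with 4D9 and 203 ± 14.1 with ATV:4D9. In the fit without a block it passed no test. The log2 fold change with ATV:4D9 in WT mice was -0.14 (adjusted p = 0.350), which passed with the pool as a block (adjusted p = 0.00477) and by library totals (-0.25, adjusted p = 0.0146). The genotype difference under ATV:4D9, 0.16 (adjusted p = 0.545), passed with the block (adjusted p = 0.00625). Aph1b, at 19 to 101 UMIs in a whole mouse, averaged 1.24 CPM in WT mice given ATV:ISO and 1.00 with ATV:4D9, and 1.03, 0.895 and 0.937 CPM in AppSAA mice given ATV:ISO, 4D9 and ATV:4D9. It passed no test, with log2 fold changes from -0.22 to 0.14.

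In CPM, Itm2b fell with ATV:4D9 in both genotypes. It stood at 5699, 5506, 4958 and 4963 CPM in WT mice given ATV:ISO and at 3502, 3377, 2763 and 2828 CPM with ATV:4D9. In AppSAA mice it stood at 5586, 4970, 4758 and 4790 CPM with ATV:ISO, 5477, 5252, 4614 and 4815 CPM with 4D9, and 3666, 4270, 3811 and 3620 CPM with ATV:4D9. Each ATV:4D9 mouse was below every mouse of the groups it was compared with. The log2 fold change was -0.65 in WT mice (interval -0.90 to -0.39, adjusted p = 1.0e-04), -0.32 in AppSAA mice against ATV:ISO (interval -0.57 to -0.07, adjusted p = 0.0290) and -0.34 against 4D9 (adjusted p = 0.0231). Leaving out 1 of 4 mice ended each AppSAA call: against ATV:ISO, pools 3 and 4 of ATV:4D9 or pools 1 and 2 of ATV:ISO (adjusted p = 0.0588 to 0.106), and against 4D9, pools 3 and 4 of ATV:4D9 or pools 1 and 2 of 4D9 (adjusted p = 0.0510 to 0.0892). Both AppSAA calls also ended with only cells of 1000 to 25000 UMIs (-0.22 and -0.23, adjusted p = 0.118 and 0.106), and the first without a filter on low counts (adjusted p = 0.0516). With the pool as a block both passed (adjusted p = 1.9e-05 and 1.2e-05), as they did by library totals (-0.39 each, adjusted p = 0.000835 and 0.000787).

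With ATV:4D9, Itm2b was higher in AppSAA than in WT mice, without overlap (log2 fold change 0.44, interval 0.19 to 0.69, adjusted p = 0.0199), a call that ended without the AppSAA mouse of pool 2 or the WT mouse of pool 3 or 4 (adjusted p = 0.0582 to 0.0788). It passed with the pool as a block (adjusted p = 2.4e-06) and by library totals (0.30, adjusted p = 0.0168). With ATV:ISO the genotypes differed by 0.11 (adjusted p = 0.520). The difference between the genotypes in the response to ATV:4D9 was 0.32 (adjusted p = 0.286) and passed with the pool as a block (0.33, adjusted p = 0.00172). In UMIs per cell the direction was the opposite, and Itm2b was higher with ATV:4D9 than with ATV:ISO. The means were 51.9 against 45.3 in WT and 65.5 against 57.7 in AppSAA mice, without overlap in either genotype. The fall is thus one in the share of the library. In CPM, marker sums of other cells moved along with Itm2b. In WT mice the 5 oligodendrocyte markers summed to 58.5 to 72.7 CPM with ATV:ISO and 34.5 to 47.4 CPM with ATV:4D9, the 5 endothelial markers to 19.5 to 26.0 and at most 15.9 CPM, and the 3 B cell markers to 26.9 to 30.5 and 16.6 to 25.8 CPM. Of the endothelial markers, Pecam1 fell (15.8 to 20.9 and 7.56 to 9.53 CPM) while Cdh5 rose (1.02 to 1.46 and 2.55 to 3.39 CPM). The B cell sum was nearly all Cd79b, while Cd79a, at 0 in all 4 mice with ATV:ISO, reached 0.115 CPM with ATV:4D9. In AppSAA mice the oligodendrocyte sum overlapped (51.1 to 63.6 and 33.6 to 57.9 CPM), and the sum of the 3 monocyte markers was higher with ATV:4D9 (3.74 to 8.73 and 9.28 to 12.8 CPM). Of the monocyte markers only Plac8 rose (0.557 to 1.80 and 7.89 to 10.3 CPM). Ccr2 (median 3.68 and 2.20 CPM) and Ly6c2 (median 0.348 and 0.101 CPM) went the other way. What part these lists had in the result was not tested.

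Ide rose with ATV:4D9 in WT mice, from 37.4, 33.5, 37.8 and 51.4 CPM with ATV:ISO to 41.1, 64.4, 52.6 and 71.4 CPM. It was higher in each of the 4 pools, although the groups overlapped. The log2 fold change was 0.63 (interval 0.30 to 0.96, adjusted p = 0.00185), and the mean per cell went from 0.348 to 0.970 UMIs. AppSAA mice held 27.0, 29.0, 34.4 and 24.2 CPM with ATV:ISO, 27.0, 22.5, 33.2 and 32.7 CPM with 4D9, and 37.1, 41.1, 28.6 and 33.1 CPM with ATV:4D9. Their rise with ATV:4D9 did not pass (0.36, interval 0.03 to 0.70, adjusted p = 0.0572; against 4D9, 0.35, adjusted p = 0.0703), but passed without the ATV:4D9 mouse of pool 3 or 4 or the ATV:ISO mouse of pool 3 (adjusted p = 0.0242 to 0.0456), and against 4D9 without the ATV:4D9 mouse of pool 3 (adjusted p = 0.0297). The interaction was not called (-0.26, interval -0.73 to 0.20, adjusted p = 0.550).

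With ATV:4D9, Ide CPM was lower in AppSAA than in WT mice, but the ranges nearly touched. The highest AppSAA mouse (pool 2) stood at 41.11 CPM and the lowest WT mouse (pool 1) at 41.13 CPM. In UMIs per cell the groups overlapped. The genotype difference was called (log2 fold change -0.56, interval -0.89 to -0.23, adjusted p = 0.0227). That call ended without the AppSAA mouse of pool 3 or 4 or the WT mouse of pool 2 or 4 (adjusted p = 0.0599 to 0.0990). It passed with the pool as a block (adjusted p = 0.0115) and by library totals (-0.71, adjusted p = 0.00605). With ATV:ISO the difference was -0.30 (interval -0.63 to 0.04, adjusted p = 0.181), or -0.48 by library totals (adjusted p = 0.0282). Between the ATV:4D9 groups, for which Aplp2, Itm2b, Psen2 and Ncstn were also called, marker sums separated without overlap. The 3 monocyte markers summed to 5.55 to 6.69 CPM in WT and 9.28 to 12.8 CPM in AppSAA mice, the 5 endothelial markers to at most 15.9 and at least 16.1 CPM, and the 8 microglial markers to 23277 to 25963 and 21937 to 23240 CPM. Among the monocyte markers only Plac8 separated, at 2.37 to 5.32 CPM in WT and 7.89 to 10.3 CPM in AppSAA mice. Ccr2 (median 2.07 and 2.20 CPM) and Ly6c2 overlapped. Flt1 was higher in AppSAA mice (at most 3.41 and at least 9.42 CPM), while Pecam1 was lower (7.56 to 9.53 and 3.71 to 6.40 CPM). The other endothelial markers overlapped. The part of these marker lists in these results was not tested.

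Over all microglia, the number of the 9 genes called has to be read against the number of genes that responded. With ATV:4D9 in WT mice, 3 of 9 were called (2 higher, 1 lower), while 63.3% of all tested genes were (30.8% higher, 32.5% lower). For genotype under ATV:ISO, 3 were called, all higher, against 28.2% of all genes (14.4% higher, 13.7% lower). By library totals 2 were called, Aplp2 higher and Ide lower, beside 1512 higher and 5275 lower genes in all. For genotype under ATV:4D9, 5 were called (4 higher, 1 lower), against 11.8% of all genes (7.84% higher, 3.98% lower). Blocking on pool raised these genotype counts to 5 and 8 and the shares of all genes to 51% and 31.4%. In AppSAA mice ATV:4D9 gave 3 calls (1 higher, 2 lower) against ATV:ISO, where 55.1% of genes were called (27.9% higher, 27.1% lower), and the same numbers against 4D9, where 54.3% were (27.6% higher, 26.7% lower). The AppSAA comparisons of ATV:4D9 share mice with each other and with the genotype comparisons.

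For 4D9 against ATV:ISO in AppSAA mice, edgeR called 0% of genes, higher or lower, and 79 genes (0.562%) had an unadjusted p under 0.05, none of them among the 9. If no gene differed, a share near 0.05 of genes would fall there, so p-values in this comparison ran high. The fit holds no term for the pool, and its part in this was not tested. DESeq2 called 1 gene and 0 of the 9. The log2 fold changes of the 9 lay between -0.22 and 0.09. For the interaction, Aplp2 was the 1 gene of the 9 called, lower, against 9.14% of all genes (3.79% higher, 5.35% lower), and Itm2b joined it with the pool as a block, where 30.5% of all genes were called.

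Levels across the deposited clusters are a description without a test, since the clusters were drawn from the expression of the same cells. Cells of a cluster were summed per mouse where there were at least 20, and set beside cluster 0 of the same mouse. In mice given ATV:4D9 cluster 0 itself held few cells, 60 to 186 per WT and 37 to 195 per AppSAA mouse, which limits all their ratios. Cluster 0 made up 60.4% of cells on average in WT mice given ATV:ISO and cluster 1 1.41%. In AppSAA mice given ATV:ISO cluster 1 made up 38.3%. Clusters 2 and 4 held 47.8% and 40.0% of cells in WT mice given ATV:4D9 and 35.4% and 22.4% in AppSAA mice given ATV:4D9. Cluster 5 went from 2.48% with ATV:ISO to 22.4% with ATV:4D9 in AppSAA mice, and held 4.21% in WT mice given ATV:4D9.

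Aplp2 was the gene that varied most between clusters. Cluster 1 held a median of 342 CPM over 16 mice (108 to 441), against 76.3 CPM in cluster 0 (48.3 to 112 over 20 mice). Its median ratio to cluster 0 of the same mouse was 4.14, and it was higher in 16 of 16 mice. In cluster 3 the ratio was 1.00. In clusters 2 and 4 it differed between groups. Mice given ATV:4D9, which held 445 to 2186 cells in each of these clusters but few in cluster 0, had median ratios of 1.32 and 1.17 in WT and 1.22 and 1.04 in AppSAA mice. AppSAA mice given ATV:ISO, with 27 to 172 cells there, had 2.24 and 2.36, and those given 4D9 had 2.22 and 1.96. In cluster 5 Aplp2 was higher than in cluster 0 in 17 of 17 mice, with medians of 1.29 in WT and 1.47 in AppSAA mice given ATV:4D9 and of 2.30 with ATV:ISO and 1.76 with 4D9 in AppSAA mice. App varied less, with median ratios over all mice between 0.907 and 1.01 in the other 5 clusters. In cluster 2 its ratio differed between the WT groups, at 1.22 with ATV:ISO (23 to 42 cells, higher in 4 of 4 mice) and 0.901 with ATV:4D9 (1 of 4). In AppSAA mice the App medians there were 1.02 with ATV:ISO, 0.961 with 4D9 and 0.982 with ATV:4D9.

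Psen2 was at 1.20 times the level of cluster 0 in cluster 1 (higher in 15 of 16 mice) and 1.38 times in cluster 2 (17 of 20), where the 3 mice below were of the 4D9 group (median 0.887). In cluster 4 it was higher in 3 of 16 mice, with medians of 0.826 in WT and 0.911 in AppSAA mice given ATV:4D9, and of 0.648 with ATV:ISO and 0.401 with 4D9 in AppSAA mice, whose sums there held 26 to 74 cells. Psenen was at 0.854 (higher in 0 of 16 mice) and Aph1a at 0.842 (1 of 16) in cluster 1, and Aph1a also at 0.844 in cluster 4 (0 of 16). Ncstn ratios lay between 0.872 and 1.01. Aph1b was too sparse to rank, with mice at 0 in every cluster.

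In clusters 2 and 4, which held most cells after ATV:4D9, Itm2b was lower and Ide higher than in cluster 0. Itm2b was at 0.694 of cluster 0 in cluster 2 and 0.640 in cluster 4, lower in all 20 and all 16 mice. The lower level was not particular to these clusters. Itm2b was at 0.876 in cluster 3 (higher in 0 of 20 mice) and 0.907 in cluster 1 (higher in 1 of 16). Ide was at 1.27 in cluster 2 (higher in 20 of 20 mice) and was higher in 14 of 16 mice in cluster 4, with medians of 1.76 in WT and 2.04 in AppSAA mice given ATV:4D9 but 1.06 with ATV:ISO and 1.27 with 4D9 in AppSAA mice. In cluster 5 Itm2b was lower in 15 of 17 mice, with medians of 0.652 in WT and 0.783 in AppSAA mice given ATV:4D9 against 0.952 with ATV:ISO and 0.982 with 4D9 in AppSAA mice, whose sums held 37 to 233 cells. Ide was higher there in 10 of 17 mice, with medians in AppSAA mice of 1.18 after ATV:4D9, 1.19 after 4D9 and 0.963 after ATV:ISO.

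**Figure D3:**
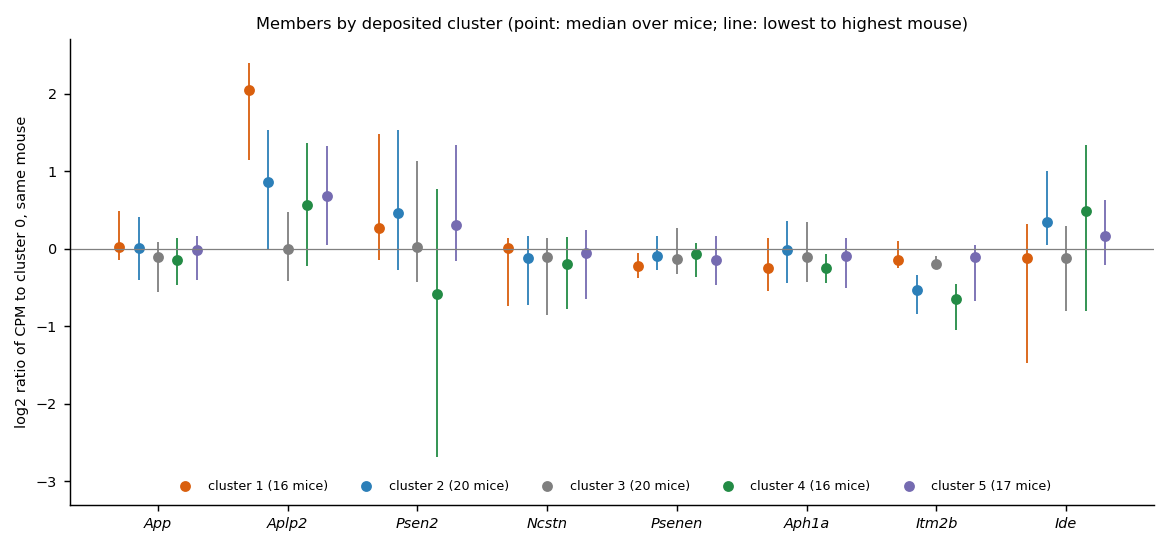
Log2 ratio of CPM in clusters 1 to 5 to CPM in cluster 0 of the same mouse (y axis) for 8 of the genes (x axis; Aph1b left out as too sparse). Points are medians over mice and lines run from the lowest to the highest mouse. Aplp2 stands highest, in cluster 1, and Itm2b is below 0 in every mouse in clusters 2, 3 and 4.

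The comparisons were also made within single clusters. The 5 comparisons planned inside clusters called none of the genes, where edgeR called 0.274% of all genes for genotype and 1.47% for ATV:4D9 in WT mice in cluster 0, 1.51% for ATV:4D9 in AppSAA mice in cluster 1, and 2.07% and 2.76% for genotype under ATV:4D9 in clusters 2 and 4. At an unadjusted p under 0.05 there were 1, 1, 0, 2 and 2 of the genes, beside 4.52%, 13%, 10.3%, 7.7% and 10.3% of all genes. With the pool as a block 1, 1, 0, 2 and 2 were called, beside 4.61%, 8.96%, 7.77%, 7.38% and 9.79%.

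In cluster 0, Aplp2 averaged 75.3 ± 8.84 CPM in WT and 80.7 ± 6.52 CPM in AppSAA mice given ATV:ISO (log2 fold change 0.13, interval -0.08 to 0.34, adjusted p = 1.00). In cluster 1 of AppSAA mice it averaged 359 ± 41.4 CPM with ATV:ISO and 339 ± 57.4 CPM with ATV:4D9 (-0.03, interval -0.30 to 0.24, adjusted p = 0.992). Under ATV:4D9, AppSAA exceeded WT by 0.34 in cluster 2 (adjusted p = 0.311, 0.0193 with the block) and by 0.29 in cluster 4 (adjusted p = 0.258, 0.0201 with the block).

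Comparisons added after the levels were seen gave further values for Aplp2. In cluster 2 it was lower with ATV:4D9 in both genotypes, at 82.9 ± 10.2 against 145 ± 19.4 CPM in WT mice (log2 fold change -0.80, adjusted p = 0.00314; 5.88% of genes called) and 99.4 ± 10.2 against 190 ± 51.0 CPM in AppSAA mice (-0.91, adjusted p = 4.5e-05; 13.2% called). These sums rest on unequal numbers of cells, 23 to 42 against 1339 to 2186 per WT mouse and 75 to 172 against 818 to 1971 per AppSAA mouse. In cluster 1 under ATV:ISO, AppSAA mice exceeded 3 WT mice by 0.66 (interval 0.33 to 0.99, adjusted p = 0.0417; 1.21% called). The WT sums held only 27 to 62 cells, and the call ended with library totals (adjusted p = 0.0621), with RLE factors, with limma-voom and without any of 5 of the 7 mice (AppSAA pools 2, 3 and 4, WT pools 1 and 4; adjusted p = 0.0520 to 0.199).

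App was also lower in cluster 2 of WT mice with ATV:4D9, at 135 ± 4.95 against 174 ± 11.7 CPM (log2 fold change -0.35, adjusted p = 0.0265), a call that ended without any of 5 mice (ATV:4D9 pools 2, 3 and 4, ATV:ISO pools 2 and 4; adjusted p = 0.0526 to 0.101). Itm2b gave -0.35 there (adjusted p = 0.0541), which passed in 6 of 13 alternatives (0.00126 with the block). Itm2b in cluster 0 of WT mice changed by -0.09 with ATV:4D9 (interval -0.36 to 0.17, adjusted p = 0.851).

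The genotype difference of Ide passed in none of the 4 clusters tested. It was -0.45 in cluster 0 under ATV:ISO (adjusted p = 0.554) and -0.45 and -0.44 in clusters 2 and 4 under ATV:4D9 (adjusted p = 0.116 and 0.240). In cluster 1 under ATV:ISO, an added comparison, it had the opposite sign (0.40, interval -0.21 to 1.01, adjusted p = 0.650). With the pool as a block the first 3 passed (adjusted p = 0.00454, 0.0119 and 0.0365), as did cluster 2 without the WT mouse of pool 1 (adjusted p = 0.0140). The effect of ATV:4D9 on Ide inside cluster 0 of WT mice was 0.05 (interval -0.36 to 0.47, adjusted p = 0.955). Aph1a in that comparison was 0.25 (adjusted p = 0.211, 0.0377 with the block).

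**Figure D4:**
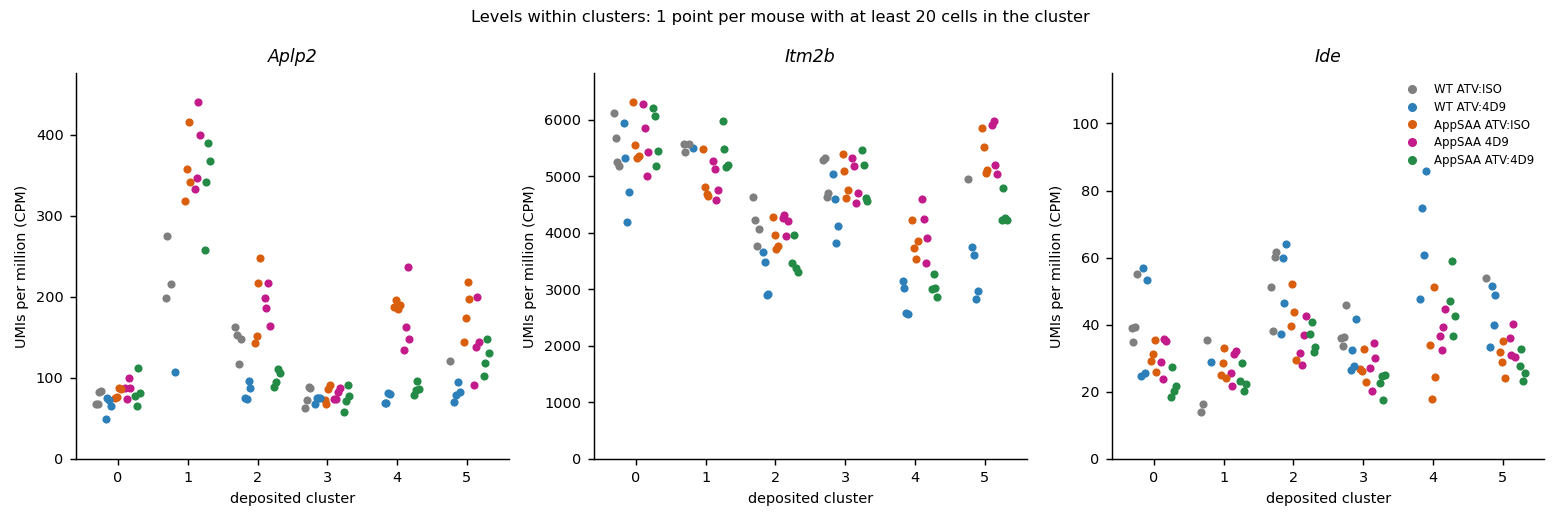
CPM (y axis, from 0) of Aplp2, Itm2b and Ide by deposited cluster (x axis), 1 point per mouse with at least 20 cells there, coloured by group. In cluster 1 AppSAA mice reach 441 CPM of Aplp2, and in cluster 0 all groups lie between 48.3 and 112 CPM of Aplp2. Ide in cluster 0 is lower in AppSAA mice given ATV:4D9 (18.3 to 27.3 CPM, 37 to 195 cells per mouse) than in WT mice given ATV:ISO (34.8 to 55.2 CPM, 1255 to 1897 cells). These groups differ in both genotype and antibody, and no test compared them. In clusters 2 and 4 the ATV:4D9 mice are the lowest for Aplp2.

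The shares of paralogues within a mouse, which do not depend on scaling, are also given as a description. App made up 63.2% ± 2.46 of App plus Aplp2 UMIs in WT mice given ATV:ISO and 62.7% ± 2.96 with ATV:4D9. In AppSAA mice it made up 37.8% ± 3.13 with ATV:ISO, 36.7% ± 2.49 with 4D9 and 51.8% ± 3.85 with ATV:4D9. The AppSAA mice given ATV:4D9 lay between, overlapping none of the other groups. By cluster the median share of App was 65.1% in cluster 0 and 28.5% in cluster 1. Aph1b made up 1.16% to 1.55% of Aph1a plus Aph1b UMIs in the group means.

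**Figure D5:**
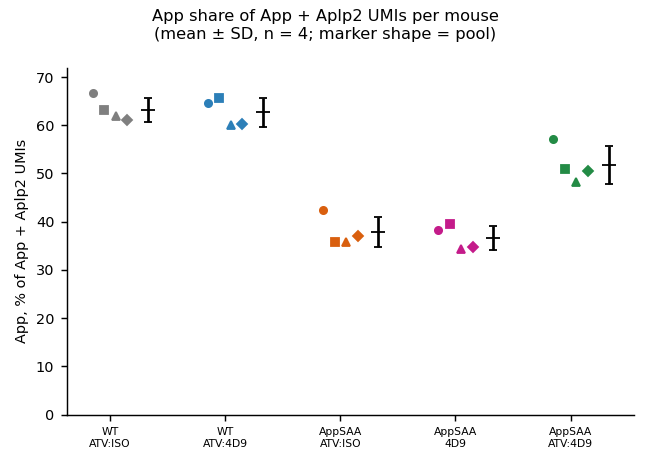
Share of App among App plus Aplp2 UMIs (y axis, percent, from 0) for each mouse, by group (x axis), with the mean ± SD (n = 4) beside the points and the pool as marker shape. App falls from about 63.2% in WT to 37.8% in AppSAA mice given ATV:ISO, with AppSAA ATV:4D9 at 51.8%.

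Beyond the 9 genes, 62 others of the pathway were examined, of which 55 were tested. ATV:4D9 gave 16 higher and 19 lower in WT mice, 63.6% against 63.3% of all genes, and 14 higher and 17 lower in AppSAA mice, 56.4% against 55.1%, so these shares were near those of all genes. Genotype gave 14 higher and 10 lower under ATV:ISO (43.6% against 28.2%), and 11 higher and 1 lower under ATV:4D9 (21.8% against 11.8%). ATV:4D9 against 4D9 gave 13 and 16 (52.7% against 54.3%), the interaction 6 and 7 (23.6% against 9.14%), and 4D9 against ATV:ISO 0 and 0. The median log2 fold change of these genes was 0.01, that of the 9 -0.03 and that of all tested genes -0.05 for ATV:4D9 in WT mice, and 0.03, 0.13 and -0.06 for genotype under ATV:ISO.

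Among 4 other subunits and assembly factors of gamma-secretase, none was called for genotype under ATV:ISO, where 28.2% of all genes were. With ATV:4D9, 2 were higher and 2 lower in WT mice (63.3% of all genes called) and 2 higher and 1 lower in AppSAA mice (55.1%). ATV:4D9 raised Tmed10 (0.48 in both genotypes) and Rer1 (0.42 in WT, 0.43 in AppSAA mice), which act in early secretory traffic of the complex. It lowered Aph1c, by 1.73 on the log2 scale in WT (adjusted p = 2.0e-07) and, with a log2 fold change of -1.15, in AppSAA mice (adjusted p = 2.98e-05). Aph1c held 52 to 274 UMIs per mouse, and its near-identity with Aph1b makes its counts uncertain too. Gsap, a gamma-secretase activating protein, was lower with ATV:4D9 in WT mice (-0.34, adjusted p = 0.00344). It was higher in AppSAA than in WT mice under ATV:4D9 (0.48, adjusted p = 0.00121) and called for the interaction (0.43, adjusted p = 0.0440), but by library totals neither passed (adjusted p = 0.0619 and 0.105).

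Of 9 other proteases that cut App or Itm2b, Bace1, the beta-secretase, was lower with ATV:4D9 in WT mice (-0.59, adjusted p = 0.000466) and in AppSAA mice under ATV:ISO (-0.47, adjusted p = 0.0102). Adam10, the main alpha-secretase, was lower in AppSAA mice under ATV:ISO (-0.24, adjusted p = 0.0083). Adam9 was higher in both comparisons (0.67 and 0.39), although by library totals the second (0.21) did not pass. In AppSAA mice ATV:4D9 gave 5 higher, led by Sppl2a (0.62, adjusted p = 2.59e-07) and Adam17 (0.31, adjusted p = 0.00427; 0.24 and not called by library totals), and 1 lower, Rhbdd1 (-0.26), where 27.9% and 27.1% of all genes were. Adam10 was among the 5 higher genes, and was also called higher with ATV:4D9 against 4D9. Furin, which processes Itm2b, was lower with ATV:4D9 in WT mice (-0.20, adjusted p = 0.033). Bace2 and the amyloid-beta protease Mme were not among the genes tested.

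The 10 other amyloid-beta degrading enzymes tested gave 6 higher and 0 lower with ATV:4D9 in WT mice, led by Thop1 (1.75) and Mmp2 (0.93), where 63.3% of all genes were called and 30.8% were higher. Under ATV:ISO, AppSAA mice had 4 higher and 1 lower, where 14.4% and 13.7% of all genes were. Ace (2.64, at 0.647 against 0.122 CPM) and Plau (1.49) led those that were higher, and Mmp2 (-0.49) was the lower one. In AppSAA mice ATV:4D9 gave 4 higher, led by Mmp2 (1.58) and Thop1 (1.41), and 3 lower, led by Ace (-1.09) and Plau (-0.60), where 27.9% and 27.1% of all genes were. Ece1 was called in no comparison.

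Of 21 App adaptors and sorting genes, 4 were higher and 11 lower with ATV:4D9 in WT mice, where 30.8% and 32.5% of all genes were, with Apbb2 (0.81) and Dab2 (0.62) rising most and Apba1 (-1.37) and Apbb1 (-0.88) falling most. Genotype under ATV:ISO gave 4 and 4 (14.4% and 13.7% of all genes), including Dab1 (2.64, under 1 CPM), Apbb2 (1.26), Bin1 (-0.49) and Sorl1 (-0.34). In AppSAA mice ATV:4D9 gave 2 higher and 7 lower (27.9% and 27.1% of all genes). The 10 other gamma-secretase substrates gave 2 higher and 4 lower with ATV:4D9 in WT mice, led by Cxcl16 (1.95) and Notch2 (-0.96), where 63.3% of all genes were called. They gave 4 and 4 for genotype under ATV:ISO (28.2% of all genes called), led by Axl (2.72) and Notch2 (-0.52). In AppSAA mice ATV:4D9 gave 1 and 4 (55.1% of all genes called), with Cxcl16 at 2.01 and Trem2, the target of 4D9, at -0.70. Of the App and BRI families, Itm2a, under 1 CPM throughout, was lower with ATV:4D9 in WT (-1.40) and in AppSAA mice (-1.01). It was higher in AppSAA than in WT mice under ATV:ISO (1.35), and Aplp1 and Itm2c were not called.

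The genes whose log2 CPM followed App most closely over the 20 mice, among 8027 genes with a mean of at least 10 CPM, were March8 (Pearson r = 0.75), Stoml1 (0.73), Tnip2 (0.73), Rab21 (0.73) and Nfe2l2 (0.72). The mice share pools, library depth and group, and App itself varied by 1.19 times, so these values are a description. Of the other 8 genes, Itm2b (0.55) and Ncstn (0.46) came closest, and Aplp2 (0.36), Aph1a (0.00) and Ide (-0.35) were further off. With each group's mean removed the order turned, to 0.37 for Aplp2, 0.28 for Aph1a, 0.22 for Ncstn and 0.02 for Itm2b.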

How the data were processed

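Single-cell RNA-sequencing of sorted brain cells (10x 3′ kit, CellPlex tags) was analysed from UMI counts as deposited by the authors, who aligned reads to mm10 with Cell Ranger 6.1.1, assigned cells to mice by tag and integrated and clustered them with Seurat. Which cells were removed, and whether doublets were, is not given in the sources used here, and every deposited cell was kept with no doublet caller run. Mouse, group, pool and cluster (resolution 0.2) came from the deposited annotation, and the counts of each of the 74758 cells summed to the deposited total.

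UMI counts were added up by mouse, and within clusters by mouse where it had at least 20 cells there. The sums entered 1 fit of all 5 groups by the quasi-likelihood F-test of edgeR 4.0.16 (R 4.3.3), after filterByExpr and TMM scaling. P-values were Benjamini-Hochberg adjusted across every gene of the fit, with calls at 0.05. Intervals are 95% intervals of that fit. Replicates are mice, and p-values measure the spread between them, differences between pools included. A gene that did not pass this fit is therefore not shown to be unchanged. CPM is counts over the library total, while fold changes are on the TMM scale. RefSeq promoter windows were searched in Python 3.11.15. Scripts were checked on simulated counts.

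Same-numbered mice share a pool per the labels, and deviations from group means correlated in all 40 same-pool pairs (0.143 to 0.607, median 0.394; median -0.193 in the 120 other pairs), so the pool pairs the mice. Alternatives were RLE factors, library totals, other filters, DESeq2 1.42.0, limma-voom (limma 3.58.1), the pool as a block, cells with 1000 to 25000 UMIs, at least 50 cells per cluster sum, and leaving out each mouse. Library totals and 3 cluster comparisons were added after values were seen.

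The 9 genes, the pathway and marker lists and the tests were chosen with earlier results of these data known. The text names the 9 genes, Adam10, Adam17, Bace1, Bace2, Sppl2a, Furin, Mme and Ece1, at most the 2 called genes of a list with the largest change in each direction, and the 5 genes most like App. Others named, such as Aph1c, Flt1, Pecam1 and Trem2, were chosen after their values were seen. Of the lists, 1 gene is not reported here.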

Additional observations from a re-analysis of the deposited data

Results flagged for a closer look

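In AppSAA mice given ATV:ISO, Psen2 was set apart in the mouse of pool 1, at 28.2 CPM, by a gap of 0.855 of the group's range to its nearest neighbour. The mouse of pool 1 given 4D9 likewise stood apart at 28.0 CPM (gap 0.907 of the range). Without the first of these mice the genotype call of Psen2 under ATV:ISO was lost, as given above. In WT mice given ATV:4D9, Aph1b was set apart in the mouse of pool 3, at 0.958 CPM against 1.01 to 1.02 in the others (gap 0.862 of the range). These 3 came from 45 groups of 4 mice examined, and chance alone sets about 1 in 20 groups apart by this measure. The response of Aplp2 to ATV:4D9 differed between genotypes by -0.83 on the log2 scale, tested as an interaction.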

How the results depend on the processing

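No log2 fold change past the threshold changed sign under any alternative. Over all microglia, 994 of the recomputed fold changes of the 9 genes kept their side of the threshold, 31 gained a call and 55 lost one; within clusters these were 900, 13 and 13. Aplp2 held each of its 5 calls over all microglia, the interaction included, in every alternative (interaction -0.92 to -0.67), and Itm2b and Ide held theirs for ATV:4D9 in WT mice (-0.76 to -0.57 and 0.51 to 0.76). Of the 9 genes, 3 were called for genotype under ATV:ISO and 5 with RLE factors, with a mean CPM of at least 1, with DESeq2 and with the replicate block (2 to 4 on leaving out 1 mouse). For genotype under ATV:4D9, 5 became 3 with RLE factors, without a filter and with library totals, 7 with DESeq2, 8 with the replicate block, and 2 to 5 on leaving out 1 mouse. The block also raised the interaction from 1 to 2, clusters 0 (both comparisons) from 0 to 1 and clusters 2 and 4 under ATV:4D9 from 0 to 2, and it changed no other call than those given with the results. In cluster 1 under ATV:ISO, 1 became 0 with RLE factors, limma-voom and library totals, and 0 to 1 on leaving out 1 mouse. The other leave-one-out ranges were 2 to 3 for each ATV:4D9 comparison over all microglia, 0 to 1 for genotype and 1 to 3 for ATV:4D9 in WT mice in cluster 2, 1 to 1 for ATV:4D9 in AppSAA mice there, and 0 to 0 for 4D9. Over all genes, genotype under ATV:ISO moved from 3960 calls to 6787 with library totals and 7166 with the block, genotype under ATV:4D9 from 1661 to 2993, 4409 and, without the AppSAA ATV:4D9 mouse of pool 3, 1103, and the interaction from 1285 to 4284 with the block. The causes were not tested. With at least 50 cells, some comparisons with few WT cells gave no value. Cluster ratios (45) and paralogue shares (50) moved by less than the spread between mice. Depth limits Aph1b and the small cluster sums.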
